A study of Mus musculus with 96 samples.

Results

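Cd34 was expressed at very different levels between pairs of sister horizontal basal cells (HBCs), from 680 CPM (counts per 1000000 counts on genes) in the highest pair to 0.54 CPM in the lowest, and in 36 of 48 pairs both sisters stood on the same side of the median cell. The 12 pairs with the highest Cd34 and the 12 with the lowest were compared, out of 48 pairs (96 cells) in all. A pair's Cd34 value was the mean over both sisters of log2(CPM + 1), with the spike-ins left out of the cell's total. Since measured Cd34 chose the pairs, its own difference between the groups is given as a description.

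HBCs are the reserve stem cells of the olfactory epithelium (OE). They lie flat on its basal lamina, express the transcription factor p63 and the keratins Krt5 and Krt14, and divide after injury. CD34 is a heavily glycosylated sialomucin of the cell surface that is used to isolate blood stem cells and endothelial cells, and in mouse skin it marks the resting stem cells of the hair follicle bulge. Ly6a encodes Sca-1, a small surface protein tethered by a lipid anchor that is sorted together with CD34 in stem cell isolation.

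All cells were wild-type mouse HBCs grown from the OE of adult mice aged 6 to 8 weeks, taken 2 days after an injection of methimazole. This drug makes the cells of the OE detach and spares HBCs. Single HBCs were followed under the microscope on dishes coated with extracellular matrix, both daughters of a division were picked by mouth pipette, and each was sequenced from its poly(A) RNA by G&T-seq, a plate method for single cells. The labels name neither the animal nor the dish of a pair, and both groups carry the same genotype and treatment. They therefore count as a single sample, so that the values below carry the spread over pairs (SD) and no test.

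The 24 cells of Cd34-high pairs had 29780604 to 41081195 counts each and the 24 cells of Cd34-low pairs 30042988 to 44849003. The ERCC spike-in took 3.12% ± 0.64 (SD, n = 12 pairs) of all counts in Cd34-high and 3.42% ± 1.21 in Cd34-low pairs, and mitochondrial genes took 1.98% ± 0.36 and 2.33% ± 0.44. Genes with a count numbered 12874 ± 418 and 12726 ± 698 per cell. The deposited names sort the cells into 12 sets of 4 pairs; whether a set was handled together is not stated. Cd34-high pairs came from 8 sets and Cd34-low pairs from 9, 6 sets held both, and no set held more than 2 high or 3 low pairs.

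Every cell held counts of the HBC genes. Trp63, which encodes p63, ran from 45.0 to 536 CPM with a median of 129 over the Cd34-high pairs, and from 102 to 470 with a median of 195 over the Cd34-low pairs. Krt5 had medians of 2900.0 and 1824 CPM, and Krt14 of 3637 and 2942 CPM. CD34 also marks endothelial cells, fibroblasts and blood progenitors, so markers of those cells were examined. None of the 8 endothelial, 9 fibroblast and 9 blood cell markers reached 10 counts in 10% of cells. The summed level of the endothelial markers was 0.01 to 1.42 CPM in Cd34-high pairs and 0.04 to 17.3 CPM in Cd34-low pairs, and Cdh5 and Emcn, which define endothelium, had no count in any cell. The fibroblast markers summed to 0 to 1.33 and 0 to 28.8 CPM, with Dcn and Lum at 0 in every cell, and the blood cell markers to 0 to 4.75 and 0 to 8.27 CPM, with Cd3e and Tyrobp at 0 in every cell. Other markers of these lists were counted in some cells, with up to 1454 (endothelial), 2132 (fibroblast) and 743 counts (blood) in a cell. Of 15 markers of other olfactory cells only Gap43 was counted often enough to compare, and all 15 summed to at most 10.0 CPM in a Cd34-high and 7.87 CPM in a Cd34-low pair.

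Cd34 (ENSMUSG00000016494) lies on chromosome 1, positions 194938819 to 194961279 of GRCm38, on the plus strand. Over the 12 Cd34-high pairs the mean of both sisters ran from 243 to 680 CPM with a median of 405. Over the 12 Cd34-low pairs it ran from 0.54 to 21.5 CPM with a median of 1.02. On the log2 scale the groups were at 8.71 ± 0.44 and 1.65 ± 1.02 (SD, n = 12 pairs each), a difference of 7.06, and their mean CPM differed 73.4-fold. The edges of the groups were unequal. The last Cd34-high pair, pair 13, had a log2 value of 7.91 and the next pair outside, pair 24, had 7.81, whereas the first Cd34-low pair, pair 29, had 3.34 and the next pair outside, pair 10, had 4.34. The deposited TPM (transcript) values, which take gene length into account, gave Cd34 164 to 452 TPM in the high pairs and 0.33 to 14.5 TPM in the low pairs.

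**Figure D1:**
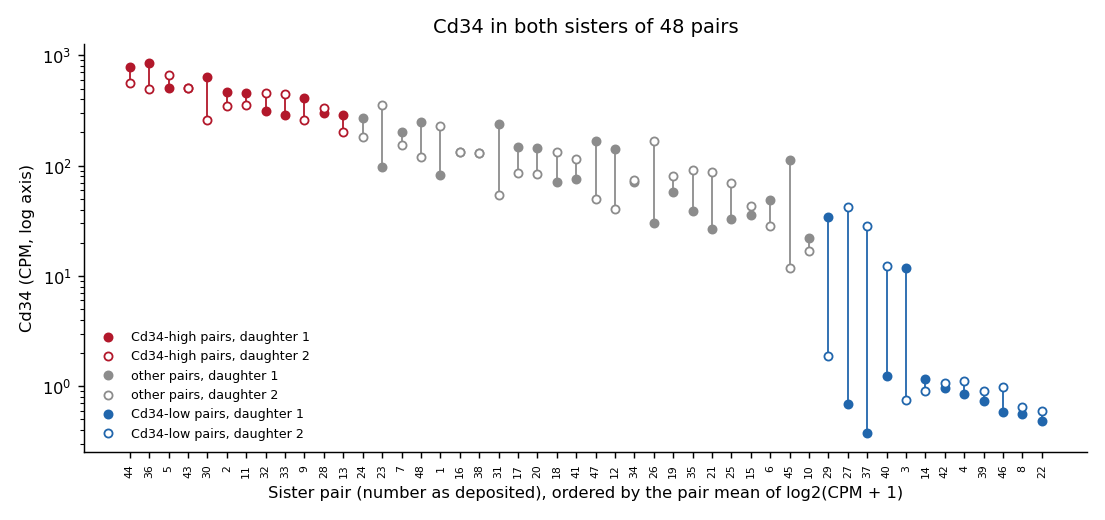
Cd34 in CPM (log axis) in daughter 1 (filled) and daughter 2 (open) of each of the 48 sister pairs, ordered by the pair value; a line joins sisters. Sisters of the 12 Cd34-high pairs (red) lie within 2.45-fold of each other, 5 of the 12 Cd34-low pairs (blue) have a sister at 11.7 to 42.4 CPM beside one under 2 CPM, and the other 7 have both sisters near 1 CPM.

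The Cd34-low pairs were of different kinds. In 7 of them (pairs 14, 42, 4, 39, 46, 8 and 22) both sisters were at 0.485 to 1.16 CPM, which rests on 16 to 43 counts per cell. In the other 5 (pairs 29, 27, 37, 40 and 3) the sister with more Cd34 was at 11.7 to 42.4 CPM and the sister with less at 0.372 to 1.88 CPM. All 19 cells under 2 CPM belonged to Cd34-low pairs and none to the other 36 pairs. No cell was without a Cd34 count, and what counts this low derive from was not tested. The reads carry no molecular identifiers, so the counts are amplified copies and not separate molecules.

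Sisters mostly shared their Cd34 level. With the median of all 96 cells (86.6 CPM) as a divide, both sisters were above it in 18 pairs, both were below it in 18 and the sisters were split in 12. The ratio of the higher to the lower sister was 1.01 to 2.45 in Cd34-high pairs (median 1.42), 1.00 to 9.46 in the middle 24 pairs (median 1.82) and 1.11 to 76.4 in Cd34-low pairs (median 1.51). Of the middle pairs, 3 had sisters that differed by over 4-fold.

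Reading Cd34 in the sister that took no part in the choice gives a value the choice did not fix. When daughter 1 chose the 12 highest and 12 lowest pairs, daughter 2 of the high pairs had 201 to 663 CPM with a median of 399.9, and daughter 2 of the low pairs had 0.591 to 42.4 CPM with a median of 1.03. The difference was 6.48 on the log2 scale, with SDs of 0.51 and 1.85. When daughter 2 chose, daughter 1 had 97.9 to 862 CPM in the high pairs and 0.485 to 112 CPM in the low pairs, a difference of 6.45. The groups did not overlap in the first reading and overlapped in the second. Of the pairs chosen, 11 high and 10 low pairs were the same by either daughter. Daughter numbers carry no stated order.

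The sequence just upstream of Cd34 is shown because the gene defines the groups, followed by those of Mcm6 and Top2a, the genes of the replication and mitosis lists with the largest differences. Each is the 200 bases before the RefSeq start, read 5′ to 3′ on the gene's own strand in GRCm38.p6. Cd34 is at chr1:194938621-194938820 (plus strand), Mcm6 at chr1:128359706-128359905 (minus strand) and Top2a at chr11:99024190-99024389 (minus strand). Capitals mark matches, on either strand, to TTTCCCGC, TTTCGCGC, TTTGCCGC or TTTGGCGC (the E2F motif) in Cd34 and Mcm6, and to TTTGAA or TTCGAA (the CHR element of late cell cycle genes) in Top2a.
Cd34: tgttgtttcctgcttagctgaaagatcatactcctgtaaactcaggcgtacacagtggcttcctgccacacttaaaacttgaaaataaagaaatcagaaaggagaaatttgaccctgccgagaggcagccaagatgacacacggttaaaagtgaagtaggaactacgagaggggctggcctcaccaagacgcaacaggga
Mcm6: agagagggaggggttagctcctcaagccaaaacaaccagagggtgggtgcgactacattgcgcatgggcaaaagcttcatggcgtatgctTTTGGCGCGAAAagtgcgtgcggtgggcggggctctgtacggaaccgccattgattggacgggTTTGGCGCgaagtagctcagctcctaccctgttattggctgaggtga
Top2a: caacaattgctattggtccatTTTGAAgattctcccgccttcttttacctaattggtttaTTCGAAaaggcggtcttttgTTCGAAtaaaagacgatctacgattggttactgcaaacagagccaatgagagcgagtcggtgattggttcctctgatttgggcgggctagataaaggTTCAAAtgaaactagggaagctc
Mcm6 held 3 E2F matches, which begin 110, 106 and 47 bases before the start and of which the first and second overlap. Top2a held 4 CHR matches, beginning 179, 140, 120 and 23 bases before its start. Cd34 had no E2F match in this window.

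Ly6a (ENSMUSG00000075602, chromosome 15, positions 74994877 to 74998031 of GRCm38, minus strand) overlapped between the groups. Its pair means ran from 6.31 to 2745 CPM with a median of 1079.9 in Cd34-high pairs and from 516 to 4570 CPM with a median of 2042 in Cd34-low pairs. The group means of log2(CPM + 1) were 9.45 ± 2.27 and 10.57 ± 1.15, a difference of −1.12. The ranges overlapped widely, and 2 of 12 Cd34-high pairs were above the median of the Cd34-low pairs. The difference was smaller without a single pair. In pair 11 Ly6a stood at 6.03 and 6.59 CPM, while its Cd34 was 453 and 354 CPM. Without that pair the difference was −0.52, with 270 to 2745 CPM over the remaining 11 Cd34-high pairs. Over all 48 pairs the Spearman correlation of Ly6a with Cd34 was −0.20, and over the middle 24 pairs it was 0.09. In TPM, Ly6a was at 11.6 to 4920 in Cd34-high pairs, and its median of 1992 TPM there was above that of Cd34 (267 TPM). The Ly6 genes lie in a cluster of close copies, and reads shared between them could be assigned to either.

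**Figure D2:**
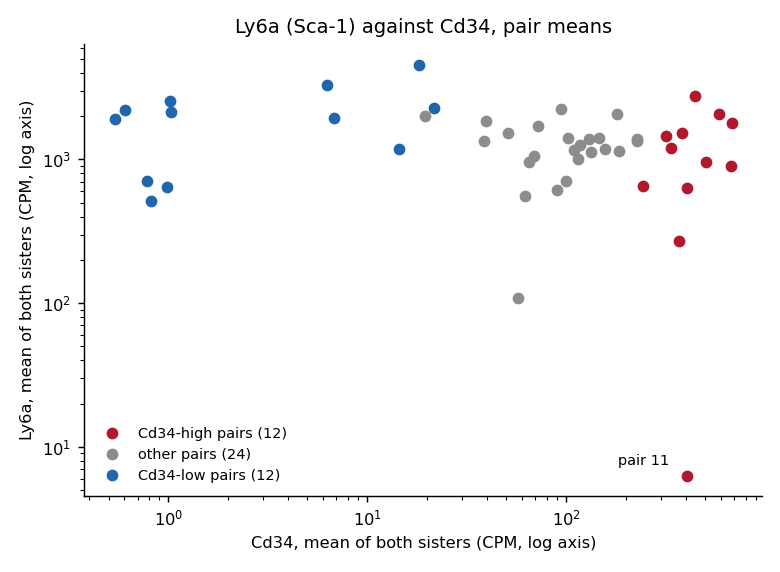
Ly6a against Cd34, each the mean CPM of both sisters (log axes), 1 point per pair. The Cd34-high pairs (red) and Cd34-low pairs (blue) share most of the Ly6a range, and pair 11, with 6.31 CPM of Ly6a, is far below the others.

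Of 22 genes of the Ly6/uPAR family, 14 passed the filter used for every comparison here, a count of 10 or above in 10% of cells or more. Of the 14, 3 were at least 2-fold lower in Cd34-high pairs (against 3.84% of all genes) and none was 2-fold higher (against 5.97%), with a median difference of −0.28. Beside Ly6a they were Psca (−1.79), a surface antigen, and Ly6d (−1.25), a marker of keratinocytes. Psca had medians of 0.45 CPM in Cd34-high and 10.8 CPM in Cd34-low pairs, with 11 of 12 Cd34-high pairs under the Cd34-low median and up to 1331 CPM in a Cd34-low pair. Ly6d had medians of 0.14 and 1.08 CPM. Ly6e (−0.23) and Ly6c1 (−0.12) differed by less than their SDs. So did Ly6d, with SDs of 1.94 in Cd34-high and 2.84 in Cd34-low pairs, and Ly6a, with 2.27 and 1.15. Psca had SDs of 1.78 and 2.90.

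The family and binding partners of CD34 were examined next. Podxl, the podocalyxin gene and closest relative of Cd34, had a median of 2.13 CPM (0 to 49.4) in Cd34-high pairs and 0.48 CPM (0 to 35.2) in Cd34-low pairs, a difference of 0.95. It had a Spearman correlation of 0.52 with Cd34 over the middle 24 pairs. Podxl2 never had more than 1 count. The adaptor genes Crk (0.12) and Crkl (0.49) and the linker genes Ezr (−0.45), Msn (0.66) and Rdx (0.10), whose products tie membrane proteins to actin, all stayed within 2-fold. Of the 9 measured genes of this list only Cd34 passed 2-fold, and without it the median was 0.11. Of all genes 5.97% were 2-fold higher and 3.84% were 2-fold lower.

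The hair follicle bulge list asked whether other genes of that CD34-positive stem cell moved with Cd34. Of 28 genes, 19 passed the filter, and their median difference was 0.05 without Cd34. With Cd34 counted, 2 were 2-fold higher (against 5.97% of all genes) and 2 were 2-fold lower (against 3.84%). Gas1 (1.36), a membrane protein that binds Hedgehog, was higher, at 0.71 to 63.9 CPM against 0.03 to 17.6 CPM. Fst (−1.47), which encodes the activin inhibitor follistatin, and Krt15 (−1.02), a keratin of the bulge, were lower. Fst had medians of 6.20 and 16.0 CPM. Krt15 was near 0 in both groups, with medians of 0.43 and 1.00 CPM, and reached 394 CPM in a Cd34-low pair. For each gene 8 of 12 Cd34-high pairs were under the Cd34-low median. Sox9 (−0.45), Nfatc1 (−0.02), Tcf7l1 (0.87) and Nfib (0.15), transcription factors of the bulge, were within 2-fold. Lhx2 and Cd200 were counted in 1 cell each and Lgr6 and Wif1 in none.

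Over all 14463 genes that passed the filter, 863 (5.97%) were at least 2-fold higher in Cd34-high pairs and 555 (3.84%) at least 2-fold lower, and the median difference of all genes was 0.06. Separation between the groups was rare. Only Cd34, which chose the pairs, was higher in every Cd34-high pair than in any Cd34-low pair (0.00691% of genes), and 0 genes (0%) were lower in all. For every other gene the ranges of the groups overlapped. The low pairs were also the more varied: 63.4% of genes had the larger SD in Cd34-low pairs, where the median SD was 1.20 against 1.05 in Cd34-high pairs.

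The 24 pairs in neither group were not used by the contrast and show whether a gene follows Cd34 in its middle range. Of the 863 higher genes, 47.5% had a positive Spearman correlation with Cd34 over these pairs, against 50.4% of all genes. Of the 555 lower genes, 55.3% had a negative one, against 49.4% of all genes. The medians of the correlations were −0.01 and −0.03, and neither share was far from that of all genes. Choosing pairs by one daughter and reading the other left 335 genes 2-fold higher and 213 genes 2-fold lower in both readings, which use mostly the same pairs.

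DNA replication genes had the largest list difference. All 20 genes of the list were measured, 14 were at least 2-fold higher in Cd34-high pairs and none was 2-fold lower, beside 5.97% and 3.84% of all genes. The median difference was 1.43. Mcm6 (2.25) and Mcm3 (2.02) had the largest differences, and the other subunits of the helicase that is loaded at replication origins were at 1.77 (Mcm5), 1.63 (Mcm4), 1.60 (Mcm2) and 1.46 (Mcm7). Mcm6 ran from 85.1 to 698 CPM with a median of 243 in Cd34-high pairs, and from 0.95 to 367 CPM with a median of 155 in Cd34-low pairs. The medians differed far less than the means of logs, since 4 Cd34-low pairs lay below every Cd34-high pair and the other 8 within their range. Ccne1 (1.94), the cyclin of S phase entry, had medians of 38.8 and 3.30 CPM. Pola1 (1.56) and Prim1 (1.49), which start new DNA strands, and Tyms (1.51) and Rrm2 (1.39), which supply nucleotides, were higher, while the sliding clamp Pcna (0.62) and Rrm1 (0.71) were within 2-fold.

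The mean over the replication list shows which pairs account for this. It was 4.78 to 7.84 (log2) in the 12 Cd34-high pairs, and in 5 Cd34-low pairs it was lower than in any of them: 1.74 in pair 4, 3.19 in pair 14, 3.52 in pair 29, 3.75 in pair 8 and 4.39 in pair 46. The other 7 Cd34-low pairs, at 5.47 to 7.49, fell inside the range of the Cd34-high pairs. Of the middle 24 pairs, 1 was below 4.78, and their median of 6.41 was slightly above that of the Cd34-high pairs (6.25). The median correlation of the 20 genes with Cd34 over the middle pairs was −0.03. Leaving out any 1 of the 24 pairs gave list medians from 1.11 to 1.64. Pairs 4 and 14 had a larger mitochondrial share (2.92% and 3.00%) than any Cd34-high pair (2.65% at most), and so did pairs 27 (2.66%) and 42 (2.67%), whose replication means of 7.35 and 5.84 were inside the Cd34-high range. Pairs 14 and 29 had a larger ERCC share (5.12% and 5.21%) than any Cd34-high pair (4.28% at most), and so did pairs 39 (4.56%) and 42 (4.45%), while pairs 27 (2.05%) and 46 (2.08%) were under every Cd34-high pair (2.27% at least). The replication mean of pair 39 was 6.36. The part of these features in the difference was not tested.

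Of 22 mitosis and G2 genes, all measured, 13 were at least 2-fold higher (against 5.97% of all genes). None was 2-fold lower (against 3.84%), and the median difference was 1.15. Top2a (1.91), the topoisomerase that untangles chromosomes, ran from 29.0 to 1098 CPM (median 606) in Cd34-high and from 3.37 to 1158 CPM (median 265) in Cd34-low pairs. Mki67 (1.47), the proliferation antigen, ran from 33.0 to 1399 CPM (median 531) and from 2.97 to 1135 CPM (median 300.4). Aurkb (1.83), Cdc20 (1.73), Kif11 (1.58) and Cdk1 (1.53), which drive spindle assembly and the exit from metaphase, were higher on the log scale. Median CPM in Cd34-high and Cd34-low pairs was 86.5 and 57.6 for Aurkb, 200 and 112 for Cdc20, and 117 and 41.1 for Kif11. For Cdk1 the medians were nearly equal, at 204 and 197 CPM, and so was the mean CPM of Cdc20, at 263 and 250. Cenpa (0.19), Tpx2 (0.25) and Kif20a (0.42) were within 2-fold. The spread of these genes was large in either group, with a median SD of 2.17 in Cd34-high and 2.62 in Cd34-low pairs. Cd34-high pair 43 had a list mean of 1.97, under all but 2 of the Cd34-low pairs. The list median was 0.58 without the pairs of set 8 and 1.89 without those of set 11, and its median correlation with Cd34 over the middle pairs was −0.07.

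**Figure D3:**
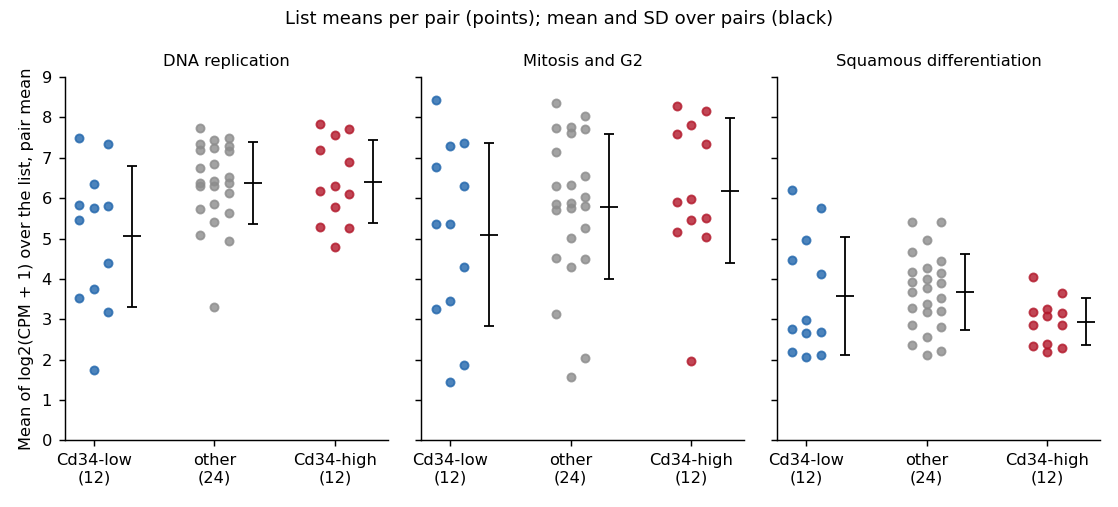
Mean of log2(CPM + 1) over the genes of 3 lists, 1 point per pair, for the 12 Cd34-low, 24 other and 12 Cd34-high pairs, with mean and SD over pairs in black. The replication mean of the Cd34-high pairs stays at 4.78 or above, 5 Cd34-low pairs lie under it, and 5 Cd34-low pairs lie above every Cd34-high pair in squamous genes.

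The promoters of these lists were searched for the motifs given above, in the window from 250 bases before to 50 after the RefSeq start. An E2F match was found in 8 of the 16 replication genes in the table (Cdc6, Cdt1, Mcm3, Mcm5, Mcm6, Mcm7, Pola1 and Uhrf1), against 2.60% of all 27025 genes. A CHR match was found in 14 of 18 mitosis genes in the table, against 21.7% of all genes. Both are matches of letters and not measured binding sites. The replication genes held the CHR letters in 3 of 16 cases and the mitosis genes the E2F letters in 1 of 18. The squamous differentiation genes, described next, held the CHR letters in 7 of 17 cases (41.2%) and the E2F letters in 1 of 17.

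Squamous differentiation genes build the hardened envelope of stratified epithelia. Of 22 genes, 16 were measured, and 5 were at least 2-fold lower in the Cd34-high pairs (against 3.84% of all genes). None was 2-fold higher (against 5.97%) and 11 passed in neither direction, with a median difference of −0.83. The lower genes were Cnfn (−2.08), Sprr2a3 (−1.30), Ivl (−1.27), Sprr3 (−1.01) and Dsc2 (−1.01). Cnfn, which encodes cornifelin, had medians of 0.99 and 7.92 CPM and reached 4717 CPM in a Cd34-low pair against 7.54 CPM in the highest Cd34-high pair. Ivl, the envelope protein involucrin, had nearly equal medians of 13.6 and 14.7 CPM. Klf4, with lowest and highest values of 11.4 and 161 CPM in Cd34-high and 24.8 and 189 CPM in Cd34-low pairs, stood just short of 2-fold, and the desmosomal cadherin Dsg3 (0.86) went the other way. The Sprr2a copies are near identical and may share reads.

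The squamous list mean was 2.19 to 4.04 in Cd34-high pairs. It was above that range in 5 Cd34-low pairs (22, 40, 8, 4 and 46) and below it in 2. Of these 5, pairs 4, 8 and 46 were also among the 5 with the lowest replication means. The middle pairs, at a median of 3.72, were above both the Cd34-high (2.97) and the Cd34-low pairs (2.88), and 8 of the 24 exceeded every Cd34-high pair. Taking group medians in place of means brought the list to −0.22, and without pair 4 it was −0.52.

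Wound response genes split. Of 13 measured genes of 21, 3 were 2-fold higher (against 5.97% of all genes) and 4 were 2-fold lower (against 3.84%), with a median of −0.46. The stress keratins Krt6a (1.08) and Krt6b (1.11) were higher, with Krt6a at 1865 to 8521 CPM (median 5063) in Cd34-high and 860.1 to 8786 CPM (median 3540.0) in Cd34-low pairs. Krt23 (−2.20) was lower, at 0.36 to 90.6 CPM (median 34.6) against 16.2 to 717 CPM (median 225), and no Cd34-high pair reached the Cd34-low median. Of the growth factors of the EGF family, Areg (−2.11) and Hbegf (−1.81) were lower, and Ereg (1.51) was higher on the log scale. Ereg had medians of 23.3 and 1.18 CPM, but its mean CPM was lower in Cd34-high pairs (30.5 against 58.7). A Cd34-low pair reached 419 CPM of Ereg. Its correlation with Cd34 over the middle pairs was −0.30, and its difference was 1.30 when daughter 1 chose and 0.36 when daughter 2 chose. Sprr1a (−3.54), a cornified envelope precursor that injured epithelia express, had the most negative difference of any gene named here. It ran from 1.36 to 89.6 CPM (median 7.23) in Cd34-high pairs and from 0.67 to 3274 CPM (median 185) in Cd34-low pairs, of which 7 exceeded every Cd34-high pair. In the middle pairs its median was 54.2 CPM, and its correlation with Cd34 there was −0.04.

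**Figure D4:**
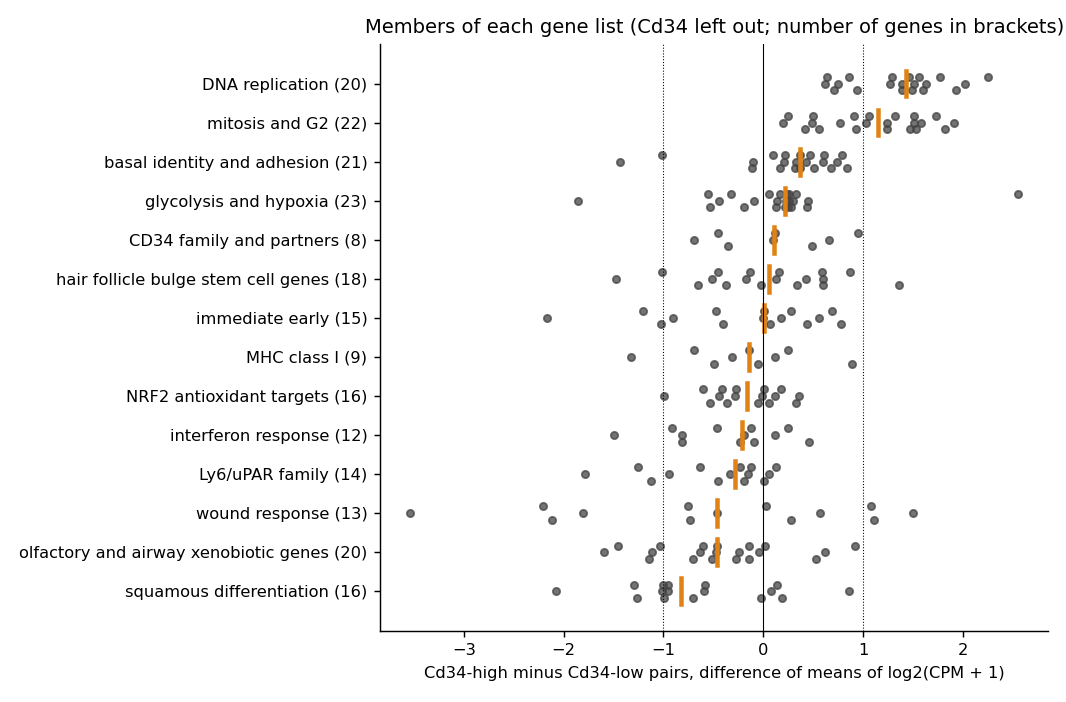
Difference of Cd34-high minus Cd34-low pairs in mean log2(CPM + 1) for each measured member of 14 gene lists, with Cd34 left out; orange bars are list medians and dotted lines mark 2-fold. All members of the replication and mitosis lists lie to the right of 0, with medians of 1.43 and 1.15, and the squamous list has the lowest median, −0.83.

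Genes of basal identity and adhesion to the basal lamina differed little. All 21 were measured and 17 were above 0, with a median of 0.37. None was 2-fold higher (against 5.97% of all genes) and 2 were 2-fold lower (against 3.84%). Krt14 (0.84), Dst (0.79), Itgb4 (0.74) and Krt5 (0.61), parts of the keratin network and its hemidesmosome anchor, were higher by less than 2-fold, and Trp63 differed by −0.12. The SD of Krt14 was 0.64 in Cd34-high and 1.68 in Cd34-low pairs, since 4 Cd34-low pairs were under the lowest Cd34-high pair. Itga2 (−1.44), a collagen receptor subunit, reached 56.5 CPM in the Cd34-low pairs and 2.34 CPM in the Cd34-high pairs. In this list 18 of 21 genes had the larger SD in Cd34-low pairs.

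Genes that clear foreign chemicals, which the OE and airway express strongly, were listed with the water channels Aqp3, Aqp4 and Aqp5 and with Tmprss11d. The median of this list was −0.47 over 20 measured of 27. None was 2-fold higher (against 5.97% of all genes) and 5 were 2-fold lower (against 3.84%): Gsta3 (−1.59), Ugt2a1 (−1.45), Gsto1 (−1.14), Cyp2f2 (−1.11) and Adh7 (−1.04). Gsto1, a glutathione transferase, ran from 955 to 3211 CPM (median 1815) in Cd34-high and from 1619 to 12433 CPM (median 4683) in Cd34-low pairs, with every Cd34-high pair under the Cd34-low median. Ugt2a1 had medians of 0.37 and 0.87 CPM and Cyp2f2 of 0.20 and 0.22 CPM. Of the 16 NRF2 antioxidant targets none was 2-fold higher (against 5.97% of all genes) or 2-fold lower (against 3.84%). Their median was −0.16, although Me1, with medians of 84.9 and 148 CPM, came close to 2-fold lower.

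Glycolysis and hypoxia genes had a median of 0.22 over 23. Of them 1 was 2-fold higher (against 5.97% of all genes) and 1 was 2-fold lower (against 3.84%). Car9 (2.55), a carbonic anhydrase induced by low oxygen, was higher, at 12.4 to 342 CPM (median 94.6) against 0.06 to 295 CPM (median 31.5), and Ndrg1 (−1.85), which is also induced by hypoxia, was lower, so that these markers went opposite ways. Immediate early genes respond within minutes to handling and growth factors. Of 15 measured, 3 were 2-fold lower (against 3.84% of all genes) and none was 2-fold higher (against 5.97%). Dusp1 (−2.16), Atf3 (−1.21) and Klf6 (−1.02) were lower. Fos (−0.40), Egr1 (0.77) and Jun (0.00) were within 2-fold, and the median was 0.00. Of 12 measured interferon response genes only Ifitm1 (−1.49) passed 2-fold, and 15 more listed genes were too low to compare. Of 9 MHC class I genes only the peptide transporter Tap2 (−1.32) did, and H2-K1 was at 0.25 and B2m at 0.11. The medians of the interferon and MHC class I lists were −0.21 and −0.14. In each of these lists 1 gene was 2-fold lower (against 3.84% of all genes) and none was 2-fold higher (against 5.97%).

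After Cd34, the genes with the largest positive differences among those with a mean of at least 10 CPM were of mixed function. Nptx1 (2.72), a secreted neuronal pentraxin, ran from 6.50 to 135 CPM (median 38.4) in Cd34-high pairs and from 0 to 102 CPM (median 2.74) in Cd34-low pairs. Tmem47 (2.67), a membrane protein of cell junctions, ran from 39.7 to 98.0 CPM in Cd34-high and from 0 to 44.8 CPM in Cd34-low pairs, with SDs of 0.55 and 2.24. Among the rest were Efemp1 (2.56), which encodes the matrix protein fibulin-3, Ntf3 (2.42), which encodes neurotrophin-3, and Spp1 (2.18), which encodes the secreted osteopontin. Ntf3 had medians of 13.4 and 0.05 CPM. Spp1 had SDs of 3.40 and 3.46, larger than its difference.

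Gls2 (2.57), the mitochondrial glutaminase, had medians of 20.4 and 0.09 CPM, and every Cd34-high pair was above the Cd34-low median. Porcn (2.17), the enzyme that adds the lipid that Wnt proteins need for secretion, ran from 7.64 to 98.5 CPM against 0.08 to 43.8 CPM. Ctnnal1 (2.30), an alpha-catenin relative, Itpk1 (2.38), an inositol phosphate kinase, Top3a, a topoisomerase with medians of 33.7 and 2.60 CPM, and the less studied Pwwp3a (2.62) and Zfp12 (2.19) complete the group with Car9 and Mcm6. Over the middle pairs 11 of 14 had a positive correlation with Cd34, from −0.16 for Efemp1 to 0.59 for Spp1.

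After Sprr1a and Prmt2, the 15 genes with the largest negative differences included Cers3 (−2.82), which makes the very long ceramides of the skin barrier, the tight junction claudin Cldn4 (−2.68), the membrane protease Tmprss4 (−2.46), the tetraspanin Tspan1 (−2.40) and Il1f9 (−2.35), which encodes the epithelial cytokine IL-36 gamma. Cldn4 ran from 0.75 to 375 CPM (median 56.4) in Cd34-high pairs and from 50.6 to 1720 CPM (median 221) in Cd34-low pairs. Mettl27 (−2.52), a methyltransferase-like gene at positions 134932368 to 134942637 of chromosome 5, is close to Cldn4, at 134945119 to 134946934, and the ranges of both groups overlapped for either gene.

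Prmt2 (−3.05), an arginine methyltransferase, had medians of 0.08 and 38.1 CPM, with 11 of 12 Cd34-high pairs under the Cd34-low median and 1 at 42.3 CPM. Ppm1h (−2.82), a protein phosphatase, ran from 0.05 to 37.9 CPM (median 9.95) against 15.1 to 253 CPM (median 48.9), and Dram2 (−2.32), a lysosomal membrane protein of autophagy, from 0.12 to 27.9 CPM (median 13.9) against 14.4 to 110 CPM (median 43.9). For both, every Cd34-high pair lay under the Cd34-low median. The ranges overlapped from 15.1 to 37.9 CPM for Ppm1h and from 14.4 to 27.9 CPM for Dram2. Btg2 (−2.41), an antiproliferative factor, had medians of 19.7 and 102 CPM. Rhbdf1 (−2.55), an inactive rhomboid that guides EGF ligand release, Nt5e (−2.25), the surface nucleotidase CD73, Dgat2 (−2.24), which makes triglycerides, and F3 (−2.23), tissue factor, complete the 15. Over the middle pairs 8 of 15 had a negative correlation with Cd34, from −0.23 for Il1f9 to 0.24 for Mettl27.

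**Figure D5:**
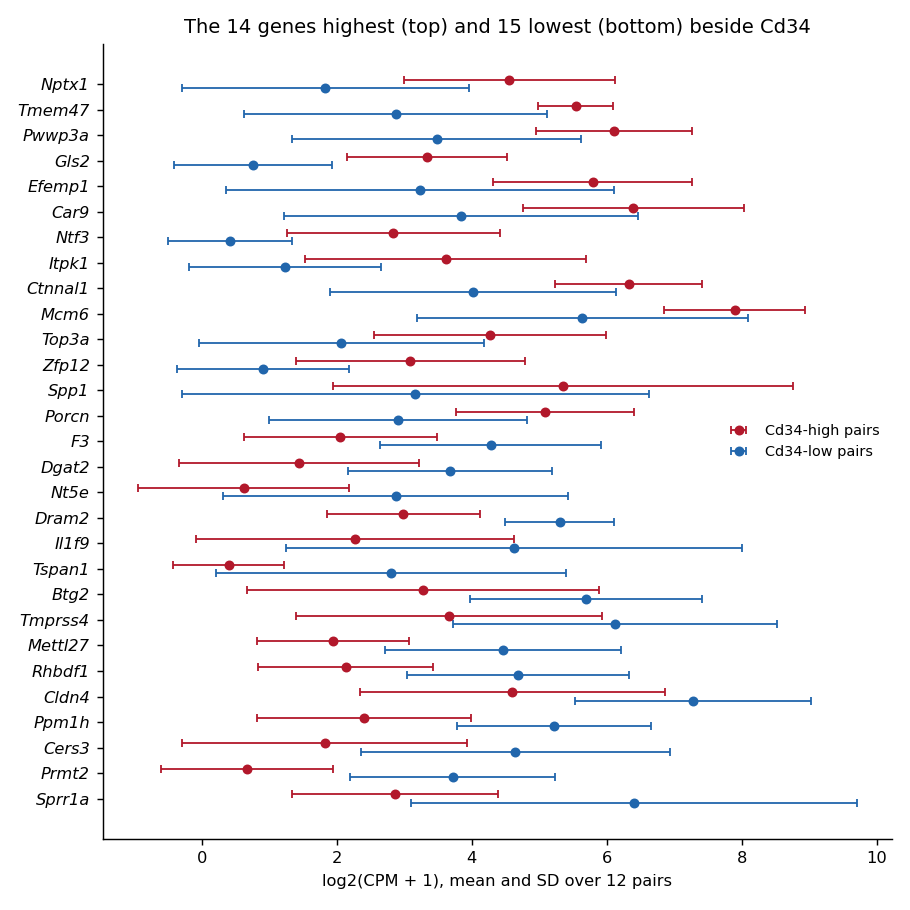
Mean of log2(CPM + 1) with SD over 12 Cd34-high (red) and 12 Cd34-low pairs (blue) for the 14 genes with the largest positive differences after Cd34 and the 15 with the largest negative ones. The SD bars of many genes overlap, and Dram2 (2.99 ± 1.13 against 5.30 ± 0.80) is among those whose bars do not.

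The genes whose level was most like that of Cd34 over all 48 pairs were ranked by Spearman correlation of pair means. Gm7729, a predicted gene with medians of 1.28 CPM in Cd34-high and 0.63 CPM in Cd34-low pairs, led (0.63), followed by the splicing factor Prpf19 (0.60), Cfap298 (0.56), the RNA polymerase II subunit Polr2b (0.56) and the cationic amino acid transporter Slc7a1 (0.55). Slc7a1 (1.65) ran from 123 to 387 CPM (median 229) in Cd34-high and from 52.6 to 185 CPM (median 114) in Cd34-low pairs, and Prpf19 (0.86) from 68.2 to 163 CPM against 42.4 to 152 CPM. Over the middle pairs alone these correlations were 0.47 for Gm7729, 0.20 for Prpf19, 0.22 for Polr2b, 0.21 for Slc7a1 and 0.38 for Cfap298. At the other end were Dram2 (−0.57), Mospd1 (−0.53), Txndc17 (−0.51), Plxdc2 (−0.51) and Ppm1h (−0.51). Txndc17, a thioredoxin-like gene, was well counted in every pair, at 93.7 to 251 CPM in Cd34-high and 179 to 401 CPM in Cd34-low pairs. Over the middle pairs Plxdc2 stood at −0.64 and the other 4 between −0.23 and −0.08. The points share a sequencing lane, and genes were picked from all 14463 by these values.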

How the data were processed

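RNA of 96 single cells (48 pairs) was sequenced in 1 lane. The authors trimmed reads with Trimmomatic (0.39), aligned them with STAR (2.7.11a) to GRCm38 with ERCC sequences and counted with StringTie (2.2.1). The deposited count table holds raw reads per gene, since no molecular identifiers were used. The deposited TPM values per cell, normalized for length and depth, served as an alternative scaling and for comparing genes.

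From the counts, log2(CPM + 1) was computed on the 55487 genes without spike-ins, averaged over sisters and compared as differences of group means with Python 3.11.15, numpy 2.4.6, pandas 2.3.3 and scipy 1.17.1. Genes needed 10 or more counts in 10% of cells. A gene was called by a difference of 1 (log2). Counting was not stated to use strand. The computation was tested on simulated data. Named were the 15 largest differences in each direction at a mean of 10 CPM or more in the higher group, the 5 highest and 5 lowest correlations with Cd34, and list members. The pairs, the 18 gene lists and this rule were chosen with earlier results of these data known. Alternatives covered scaling (ERCC, median of ratios, TPM), pseudocount, filter, group size, the daughter that chose, centring within sets, and leaving out sets or pairs. Promoter sequences came from RefSeq (GRCm38.p6). Some listed genes are not reported here.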

Additional observations from a re-analysis of the deposited data

How the results depend on the processing

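Cd34 chose the pairs under the alternatives too, so its large difference in the settings listed here follows from the choice and is a description. The difference of 7.06 was above 4 under every alternative tried. It was 4.96 with a pseudocount of 10 and 7.87 with 0.1. With 8, 16 and 24 pairs a side it was 7.90, 5.93 and 4.22, and with any set of 4 pairs left out 6.91 to 7.23. The Ly6a difference was negative under all, from −1.34 to −0.52 with a pair left out, from −1.30 to −0.54 with a set left out, and otherwise from −1.22 to −0.28, the last with 24 pairs a side. Counts of genes past 2-fold depended on the pseudocount, with 109 higher and 66 lower genes at 10, and 1829 and 1198 at 0.1. They also depended on group size. There were 1732 higher genes with 8 pairs a side, 554 higher and 344 lower with 16, and 149 and 176 with 24. Group medians gave 877 lower genes. Choosing by daughter 1 gave 1151 lower genes, and choosing by daughter 2 gave 1637 higher ones. With only the 7 Cd34-low pairs that had both sisters under 2 CPM, an alternative chosen after seeing the data, as was leaving out pairs, 1684 genes were higher. With a set left out the counts were 783 to 1337 higher, the most without set 10, and 499 to 694 lower, and with a pair left out 712 to 1083 higher and 499 to 629 lower. Scaling by ERCC chose 11 of the 12 Cd34-high and all 12 Cd34-low pairs again, and centring within sets chose 7 and 10, with a Ly6a difference of −0.47 and medians of 1.15 for the replication and 1.31 for the mitosis list. The medians of the replication and mitosis lists were positive under every alternative, from 0.80 to 2.00 and from 0.34 to 1.89. That of the wound response list changed sign, from −1.07 to 0.13, and that of the immediate early list from −0.46 to 0.21. The medians of the glycolysis, hair follicle bulge, NRF2, interferon and MHC class I lists also crossed 0 under some alternatives. Of 912 values of the 38 named genes under the alternatives, 20 moved by more than 1 SD.

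The limits are those of 1 culture description: with no animal or dish named, spread over pairs stands in for replicate error, and the part of dish or animal was not tested. Cd34 levels under about 2 CPM rest on 16 to 65 counts per cell. Other named genes lie lower and rest on fewer counts, such as Ntf3 with a median of 0.05 CPM in Cd34-low pairs. Prmt2 had a median of 0.08 CPM in Cd34-high pairs. Differences of genes near 0 in either group depend on the pseudocount.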
